A study of Danio rerio with 19 samples.

Results

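Claudins and the other core tight junction genes were followed through the gametes and the early embryo of zebrafish. The members were the gene names in the RNA tables that begin with cldn, ocln, tjp and a digit, f11r, marveld or cgn, and there were 36 of them among 14244 gene names. They comprised 28 claudins, 11 named by a letter and 17 by a number, and 4 genes of MARVEL proteins (oclna, oclnb, marveld1 and marveld2b). The others were the junctional adhesion molecule gene f11r and 3 scaffold genes (tjp2a, tjp2b and tjp3). Of these marveld1 entered by its name alone, and whether its product lies in the junction was not tested. No name began with cgn. The study collected gametes and embryos of the Tubingen strain, and 4 of its 19 samples were RNA libraries, from egg, from sperm, from blastula embryos of the 1k-cell stage and from embryos of the germ ring stage at the onset of gastrulation. Each group had 1 library, no treatment or mutant allele is labelled, and the sources used here do not give the age of the parents or the number of pooled animals or embryos. No test could therefore be run, and every difference below compares single libraries with an error that covers counting only.

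Tight junctions seal the space between epithelial cells close to their apical surface. Claudins are the membrane proteins that form the sealing strands and decide which ions pass between cells. Occludin and tricellulin, which are MARVEL proteins, lie in the same strands and at the corners where several cells meet. Zonula occludens scaffolds, encoded by the tjp genes, tie the strands to actin. In the zebrafish blastula the surface cells form the enveloping layer, an epithelium that covers the embryo and spreads over the yolk during gastrulation. Fish carry more claudin genes than mammals, many of them in tandem groups and named by letters.

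Values are normalized read counts, which the authors scaled by the TMM method and did not divide by transcript length, so levels are compared between libraries and not between genes. The libraries held from 9241829 recovered reads (egg) to 24256918 (1k-cell), and 1 read was worth from 0.951 (1k-cell) to 1.98 (egg) normalized counts. The labels were checked against lists of marker genes. Of 11 sperm and spermatid markers found in the tables, all were at 10 or more in the library labelled sperm and 2 in egg. Of 14 oocyte and egg markers found, all were at 10 or more in every library. Their summed level was 339270 in egg and 287747 in sperm, and cth1 (160517) and ccnb1 (80577) gave most of the egg sum. Most single markers went the other way. Sperm exceeded egg by 2-fold or more for 8 of the 14, and egg exceeded sperm for 5. Their median log2 ratio of egg to sperm was -3.72, and zp2.2 had 61.5 in egg and 20360 in sperm. This list alone therefore did not tell the egg label from the sperm label. For the methylation samples, the labels' protocol has sperm set free by breaking up the testis. The library labelled sperm also held genes of other tissues: all 18 markers of Sertoli, Leydig and other testis cells were at 10 or more there, against 5 of 18 in egg. Red blood cell markers reached 10 in sperm for 7 of 8 (1 in egg), liver markers for 13 of 14 (1), exocrine pancreas markers for 11 of 11 (0), skeletal muscle markers for 12 of 15 (0) and ovarian follicle markers for 10 of 10 (2). Of all 14244 gene names 12319 were at 10 or more in sperm and 9640 in egg. The counts of these lists in sperm were thus near the share of all genes, and those in egg were below it. Of the follicle markers, amh, fshr and lhcgr also count among the testis markers and gdf9 among the oocyte markers.

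Claudin and tight junction genes together took 2.73% of the reads in egg (exact 95% interval 2.72 to 2.74%), 0.585% in sperm (0.582 to 0.589%), 0.586% in 1k-cell embryos (0.583 to 0.589%) and 0.472% in germ ring embryos (0.468 to 0.475%). The egg library thus had the highest share. In bulk samples a difference in the number of cells of a type and a difference in RNA per cell cannot be told apart. With 10 normalized counts as the floor, 26 of the 36 members were present in egg, 32 in sperm, 17 in 1k-cell embryos and 24 in germ ring embryos. Of all 14244 gene names 9640 were present in egg, 12319 in sperm, 10123 in 1k-cell embryos and 10461 in germ ring embryos. No read was found for 5 members in egg, for 10 in 1k-cell embryos and for 6 in germ ring embryos, and all 36 had a read in sperm. The highest value lay in egg for 16 members, in sperm for 11 and in germ ring embryos for 9, and for none in 1k-cell embryos. The counts of members without a read and of the highest library were not set against all genes.

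**Figure D1:**
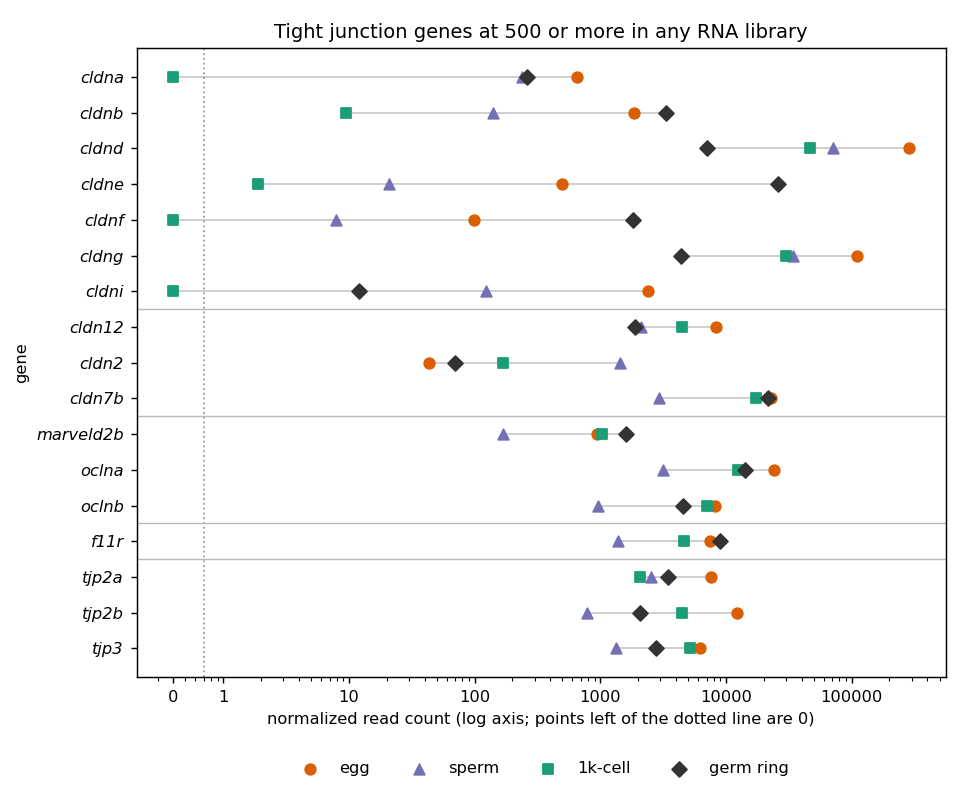
Normalized read count (log axis) of the 17 members that reached 500 or more in any RNA library, with 1 point per library; grey lines separate letter-named claudins, number-named claudins, MARVEL genes, f11r and scaffolds. The egg value of cldnd lies at 285730, and the 1k-cell values of cldna, cldnf and cldni lie at 0.

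Among the letter-named claudins, cldnd and cldng dominated the gamete libraries. The normalized count of cldnd was 285730 in egg, 70404 in sperm, 46330 in 1k-cell embryos and 7062 in germ ring embryos. That of cldng was 110675 in egg, 33953 in sperm, 29802 in 1k-cell embryos and 4398 in germ ring embryos. Both were highest in egg and lowest in germ ring embryos. Reads of cldnd alone made up 0.0318% of the germ ring library (0.0309 to 0.0327%) and 1.56% of the egg library (1.55 to 1.57%).

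Set against each other, the libraries gave cldnd a 4.06-fold higher count in egg than in sperm (95% counting interval 4.02 to 4.10). It was 6.17-fold lower in 1k-cell embryos than in egg (6.10 to 6.23) and 6.56-fold lower in germ ring embryos than in 1k-cell embryos (6.37 to 6.76). For cldng the same comparisons gave 3.26-fold higher (3.22 to 3.30), 3.71-fold lower (3.66 to 3.77) and 6.78-fold lower (6.52 to 7.04). Germ ring embryos therefore held 40.5-fold less cldnd and 25.2-fold less cldng than eggs. The ratio of cldnd to cldng reads was 2.58 in egg, 2.07 in sperm, 1.55 in 1k-cell embryos and 1.61 in germ ring embryos. The sperm values stand beside the oocyte markers noted above, whose median normalized count was 970 in egg and 20168 in sperm; their part in the sperm values was not tested.

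The pair gave 91.3% of all claudin reads in egg (91.2 to 91.4%), 92.7% in sperm (92.5 to 92.8%), 77.5% in 1k-cell embryos (77.2 to 77.7%) and 17.0% in germ ring embryos (16.7 to 17.4%). In germ ring embryos cldne and cldn7b gave most of the rest, with 38.6% (38.2 to 39.1%) and 32.3% (31.9 to 32.7%) of claudin reads. In egg they gave 0.115% (0.101 to 0.130%) and 5.29% (5.19 to 5.38%). The claudin reads of the germ ring library thus came largely from other genes than those of the egg library.

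**Figure D2:**
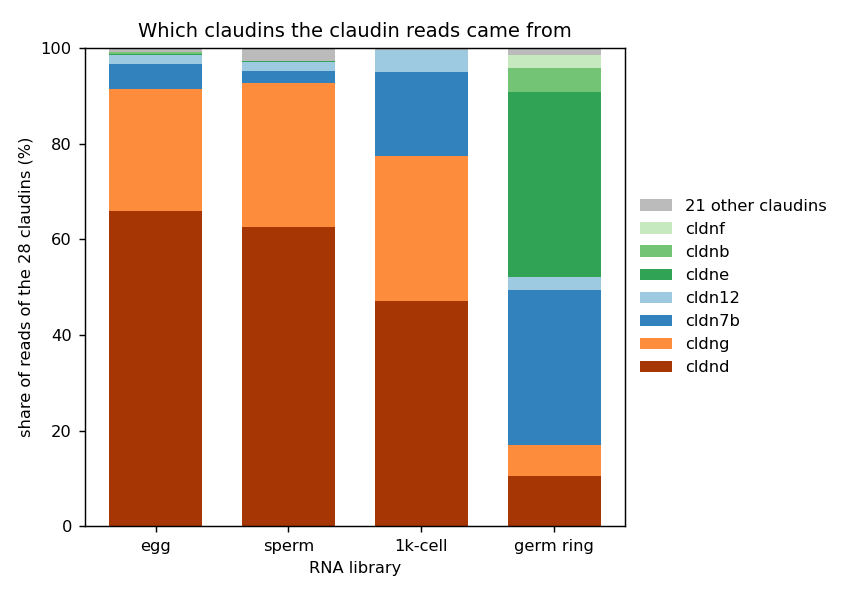
Share of the reads of all 28 claudins (%) that came from each named claudin, stacked for each RNA library; the grey block holds the other 21. The blocks of cldnd and cldng together fill 17.0% of the germ ring bar, where cldne fills 38.6%, and 91.3% of the egg bar.

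A group of letter-named claudins was present in egg, absent or nearly so in 1k-cell embryos, and present again in germ ring embryos. The clearest was cldne, which in zebrafish marks the enveloping layer and is needed for its spreading over the yolk. Its normalized count was 498 in egg, 20.9 in sperm, 1.90 (2 reads) in 1k-cell embryos and 25974 in germ ring embryos. That is 13660-fold higher in germ ring embryos than in 1k-cell embryos, with a counting interval of 3781 to 112804, and 52.1-fold higher than in egg (46.0 to 59.3). In the germ ring library cldne took more reads than any other claudin.

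The gene cldnb, used in zebrafish as a marker of the lateral line primordium and other epithelia, had 1856 in egg, 140.1 in sperm, 9.51 in 1k-cell embryos and 3340 in germ ring embryos. It was 195-fold lower in 1k-cell embryos than in egg (106 to 408) and 351-fold higher in germ ring embryos than in 1k-cell embryos (191 to 734). Its germ ring count was 1.80-fold that of egg as deposited. The log2 ratio of cldnb between germ ring and egg was 0.85 as deposited and 0.09 under median-of-ratios scaling. For cldnf the values were 99.2 in egg, 7.95 in sperm, 0 in 1k-cell embryos and 1814 in germ ring embryos. A fold against 0 reads was taken at 3 reads as a bound, which makes cldnf at least 636-fold higher in germ ring embryos than in 1k-cell embryos. It was 18.3-fold higher than in egg (13.8 to 24.8).

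The remaining members of this group reached lower values in germ ring embryos. For cldna the normalized count was 651 in egg, 237 in sperm, 0 in 1k-cell embryos and 259 in germ ring embryos, and for cldnc, now named cldn3d, it was 11.9, 69.5, 0 and 402 in the same libraries. They were at least 90.9-fold and at least 141-fold higher in germ ring embryos than in 1k-cell embryos. Compared with egg, germ ring embryos held 2.51-fold less cldna (2.08 to 3.04) and 33.8-fold more cldnc (15.3 to 92.9). The gene cldnk, which in zebrafish marks myelinating glia, had 31.8 in egg, 9.93 in sperm, 3.80 in 1k-cell embryos and 12.1 in germ ring embryos; its germ ring to 1k-cell ratio of 3.17 had an interval of 0.849 to 14.4, which includes equal levels.

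In all, 11 claudins were at 10 or more in egg and under 10 in 1k-cell embryos. Of these 8 were again at 10 or more in germ ring embryos (cldn5a, cldna, cldnb, cldnc, cldne, cldnf, cldni and cldnk) and 3 were not (cldn1, cldn7a and cldnh). These counts were not set against all genes, and cldn5a and cldnc, each at 11.9 in egg, lay near the floor there. Some of the 11 claudins were barely regained. The normalized count of cldni was 2403 in egg, 122 in sperm, 0 in 1k-cell embryos and 12.1 (8 reads) in germ ring embryos. It was at least 843-fold lower in 1k-cell embryos than in egg and still 199-fold lower in germ ring embryos (101 to 463). The gene cldnh, now named cldn3c, had 51.6 in egg, 36.8 in sperm, 0 in 1k-cell embryos and 3.01 (2 reads) in germ ring embryos. Outside these 11, the letter-named cldnj, known in zebrafish for its role in otolith formation, stayed under 10 in every library, with a highest value of 3.01 in germ ring embryos.

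Lower values in 1k-cell embryos than in egg ran through the letter-named set. Without cldnj, which reached 10 in no library, all 10 of these claudins were at least 2-fold lower in 1k-cell embryos than in egg, and their median log2 ratio was -6.18 on the log2(count + 1) scale. However, cldna, cldnb, cldnc, cldne, cldnf, cldnh, cldni and cldnk were under 10 in 1k-cell embryos. They were compared only through their egg values and could not come out higher. Only cldnd and cldng were at 10 or more in both libraries. Of all 10685 genes in the comparison 12.5% were lower by 2-fold or more and the median log2 ratio was 1.24. From the 1k-cell stage to the germ ring stage 7 of 9 were at least 2-fold higher, against 16.0% of 10917 genes, and cldnd and cldng were lower. Those 7 were compared only through their germ ring values and could not come out lower.

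Epidermal and enveloping layer markers were also low in 1k-cell embryos. Of 24 such markers 16 were found, and their summed normalized count was 146297 in egg, 22522 in sperm, 27697 in 1k-cell embryos and 245380 in germ ring embryos. At 10 or more were 13 of 16 in egg, 15 in sperm, 8 in 1k-cell embryos and 14 in germ ring embryos. The keratin gene krt5 had 109093 in egg, 82.7 in 1k-cell embryos and 25968 in germ ring embryos, and krt4 had 5146, 19.0 and 60446. Listed at 0 were cyt1l in egg, krt15, cyt1l and anxa1c in 1k-cell embryos, and krt15 and icn2 in germ ring embryos. Of 13 markers compared between the 1k-cell stage and egg, 9 were at least 2-fold lower and 0 higher, against 12.5% and 54.7% of all genes. Of the lower markers, krt15, krt18, anxa1a, anxa1b and icn2 were under 10 in 1k-cell embryos. They were compared only through egg and could not come out higher. Under median-of-ratios scaling 12 of 14 markers were lower and 0 higher, and of all genes 3683 were lower and 3246 higher. As deposited cdh1, the E-cadherin gene, had 20074 in 1k-cell embryos and 11946 in egg. Of the listed markers cdh1 and ppl also count among the adherens junction genes below, and tp63 among the epithelial regulators. The part of such cells in the claudin values was not tested.

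**Figure D3:**
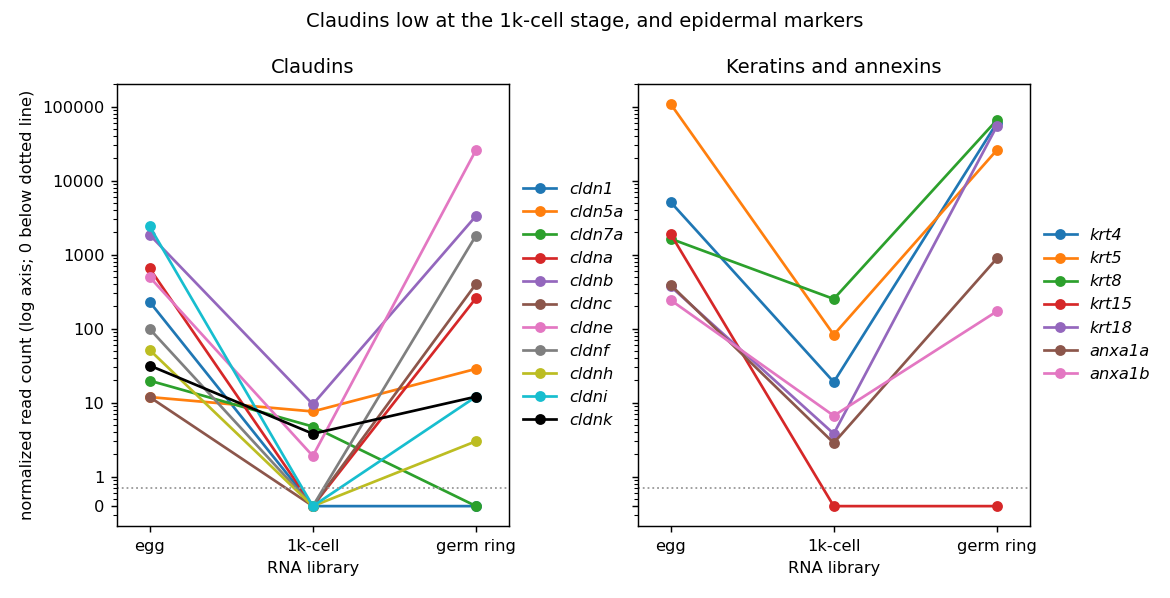
Normalized read count (log axis) at egg, 1k-cell and germ ring stages, with 1 line per gene, of the 11 claudins that were at 10 or more in egg and under 10 in 1k-cell embryos (left panel) and of the keratin and annexin markers at 10 or more in egg (right panel). In the left panel cldne ends highest at 25974 and cldn1 and cldn7a end at 0. In the right panel krt5 lies at 82.7 in 1k-cell embryos and 109093 in egg. Other markers of that list are not drawn. Of these cdh1, ppl, spint1a and tp63 were within 2-fold between 1k-cell embryos and egg, and icn and icn2 were lower in 1k-cell embryos.

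The number-named claudins differed in course, and those kept through all stages come first. Of the kept genes cldn7b took the most reads, with 22945 in egg, 2931 in sperm, 17239 in 1k-cell embryos and 21714 in germ ring embryos. It was 7.83-fold higher in egg than in sperm (7.52 to 8.16), and the values of the egg, 1k-cell and germ ring libraries lay within 2-fold of each other as deposited. Under median-of-ratios scaling the log2 ratio of cldn7b between the 1k-cell stage and egg was -1.70. The gene cldn12, whose mammalian protein lacks the usual tail that binds zonula occludens scaffolds, had 8340 in egg, 2120 in sperm, 4489 in 1k-cell embryos and 1873 in germ ring embryos. It was 2.40-fold lower in germ ring embryos than in 1k-cell embryos (2.25 to 2.55) and 4.45-fold lower than in egg (4.18 to 4.75).

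Counts of cldn5b, cldn17 and cldn8 were lower at each stage from egg to germ ring; the last pair are now named cldn8.3 and cldn8.1. The normalized count of cldn5b was 218 in egg, 388 in sperm, 45.6 in 1k-cell embryos and 19.6 in germ ring embryos, and that of cldn17 was 228, 179.8, 90.3 and 25.6 in the same libraries. Germ ring embryos held 11.1-fold less cldn5b (6.26 to 21.6) and 8.91-fold less cldn17 (5.33 to 15.8) than eggs. For cldn8 the values were 49.6 in egg, 61.6 in sperm, 18.1 in 1k-cell embryos and 6.03 in germ ring embryos, and the ratio of 1k-cell to germ ring reads had an interval of 0.996 to 12.1, which includes equal levels. The gene cldn1, whose mouse counterpart is needed for the water barrier of the epidermis, had 230.2 in egg, 13.9 in sperm and no read in either embryo library. It was at least 80.7-fold lower in 1k-cell embryos than in egg.

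In contrast, cldn11b and cldn15b were higher in embryos. The values of cldn11b were 7.94 (4 reads) in egg, 98.3 in sperm, 38.0 in 1k-cell embryos and 137 in germ ring embryos. Those of cldn15b were 9.92 (5 reads) in egg, 31.8 in sperm, 29.5 in 1k-cell embryos and 78.3 in germ ring embryos. In germ ring embryos cldn11b was 17.3-fold (6.52 to 64.7) and cldn15b 7.89-fold (3.18 to 25.3) higher than in egg. Together with cldn2 they were the 3 members of 28 compared that were at least 2-fold higher in 1k-cell embryos than in egg as deposited, against 54.7% of all genes, and none of them passed 2-fold under median-of-ratios or upper-quartile scaling. As deposited cldn11b and cldn15b were under 10 in egg, were compared only through 1k-cell embryos and could not come out lower.

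Several number-named claudins had their highest value in sperm. The gene cldn2, whose mammalian protein forms a pore for cations in leaky epithelia, had 43.7 in egg, 1422 in sperm, 168 in 1k-cell embryos and 69.3 in germ ring embryos. It was 32.6-fold lower in egg than in sperm (21.4 to 52.1). The gene cldn11a, related to the claudin of Sertoli cell and myelin junctions in mouse, had 1 read in egg, 113 in sperm, 4.75 in 1k-cell embryos and 3.01 in germ ring embryos; it was 57.1-fold lower in egg than in sperm, with an interval of 10.0 to 2273. For cldn7a the values were 19.8 in egg, 127 in sperm, 4.75 in 1k-cell embryos and 0 in germ ring embryos. The gene cldn5a, which in zebrafish seals the brain ventricles and the vessels of the brain, had 11.9 in egg, 72.5 in sperm, 7.61 in 1k-cell embryos and 28.6 in germ ring embryos.

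Present at 10 or more in sperm and in no other library were 6 members: cldn10, cldn11a, cldn15a, cldn15la, cldn15lb and marveld1. This count was not set against all genes. Apart from cldn11a their sperm values lay between 11.9 (cldn10) and 24.8 (marveld1). In egg no read was found for cldn10, cldn15a, cldn15la and cldn15lb, and cldn15lb was at least 3.84-fold lower there than in sperm. Intestinal markers, for comparison with the claudin 15 genes, which in mouse act in the gut, were at 10 or more for 0 of 8 in egg and 7 of 8 in sperm, with summed levels of 9.92 and 705. Endothelial markers reached 10 for 4 of 8 in egg and 7 of 8 in sperm, with summed levels of 242 and 1207, and the summed level of the testis cell markers was 16924 in egg and 24895 in sperm. Of all 14244 gene names 12319 were at 10 or more in sperm, near the 7 of 8 intestinal and 7 of 8 endothelial markers, and 9640 in egg. In egg, 10 of the testis markers were listed at 0, among them amh, star and insl3, as were 6 intestinal markers and the endothelial fli1b. None of these 3 lists had a marker at 0 in sperm. The part of such cells in the sperm values was not tested. The last claudin, cldn19, stayed under 10 everywhere, with 9.92 in egg and 3.97 in sperm.

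The MARVEL genes other than marveld1 were abundant in egg and kept. For occludin, a membrane protein of the junction strands, the copy oclna had 23967 in egg, 3134 in sperm, 12460 in 1k-cell embryos and 14182 in germ ring embryos, and the copy oclnb had 8239, 953, 7091 and 4565 in the same libraries. They were 7.65-fold (7.35 to 7.96) and 8.65-fold (8.06 to 9.29) higher in egg than in sperm. The tricellulin gene marveld2b had 935 in egg, 168 in sperm, 1027 in 1k-cell embryos and 1615 in germ ring embryos. None of these 3 MARVEL genes differed by 2-fold in the comparisons among egg, 1k-cell and germ ring libraries as deposited. Under median-of-ratios scaling 4 of 4, marveld1 included, were at least 2-fold lower in 1k-cell embryos than in egg, and their median log2 ratio was -1.63. Of all genes 3683 were then lower and 3246 higher, with a median of -0.14. The log2 ratio of marveld2b turned from 0.14 as deposited to -1.15. The call of marveld1 rests on 4 reads in egg and 5 in 1k-cell embryos. Its ratio as deposited had an interval of 0.129 to 3.02, which includes equal levels.

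The junctional adhesion molecule gene f11r, whose product is an immunoglobulin-type adhesion protein beside the strands, had 7488 in egg, 1372 in sperm, 4616 in 1k-cell embryos and 9026 in germ ring embryos. It was 5.46-fold higher in egg than in sperm (5.13 to 5.81) and 1.96-fold higher in germ ring embryos than in 1k-cell embryos (1.88 to 2.03). Its germ ring and egg values lay within 2-fold of each other.

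All 3 scaffold genes were highest in egg. The gene tjp2a had 7593 in egg, 2540.2 in sperm, 2052 in 1k-cell embryos and 3449 in germ ring embryos. Its paralogue tjp2b had 12331 in egg, 785 in sperm, 4430.5 in 1k-cell embryos and 2057 in germ ring embryos. The gene tjp3, which in zebrafish acts in the enveloping layer, had 6256 in egg, 1338 in sperm, 5161 in 1k-cell embryos and 2787 in germ ring embryos. The paralogues differed in course: from the 1k-cell to the germ ring stage tjp2b was 2.15-fold lower (2.03 to 2.29) and tjp2a 1.68-fold higher (1.58 to 1.78). In germ ring embryos tjp2b was 6.00-fold (5.65 to 6.36) and tjp3 2.24-fold (2.12 to 2.38) lower than in egg, and tjp2a had a log2 ratio of -1.14.

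Over all members, most were higher in egg than in sperm. Of 34 members compared, 18 were at least 2-fold higher in egg than in sperm, against 14.3% of 12443 genes, and 12 were at least 2-fold lower, against 61.3%. The median log2 ratio was 1.52 for the members and -1.80 for all genes. By role, 8 of 10 letter-named claudins, 3 of 16 number-named claudins, 3 of 4 MARVEL genes, f11r and 3 of 3 scaffolds were higher in egg. The largest ratios were those of cldne, 23.9-fold higher in egg (15.3 to 39.3), cldni at 19.7-fold (16.3 to 23.9), cldn1 at 16.6-fold (9.48 to 31.2) and tjp2b at 15.7-fold (14.6 to 16.9). The medians of the letter-named and number-named claudins were 1.86 and -2.56. Of the number-named claudins 10 of 16 were at least 2-fold lower in egg, near the 61.3% of all genes. Among them cldn10, cldn11a, cldn11b, cldn15a, cldn15b, cldn15la and cldn15lb were under 10 in egg. They and marveld1, also under 10 in egg, were compared only through sperm and could not come out higher in egg. The letter-named cldnf and cldnk were under 10 in sperm, were compared only through egg and could not come out lower there. Under median-of-ratios scaling 21 members were higher and 9 lower, and the signs of both medians were the same. Of all genes 3668 were then higher and 5318 lower, against 1777 and 7625 as deposited.

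Between the 1k-cell stage and egg, the 17 members that were at least 2-fold lower came to 60.7% of those compared, against 12.5% of all genes. The median log2 ratio was -1.67 for the members. Claudins under 10 in 1k-cell embryos were compared only through egg and could not come out higher. Conversely cldn11b and cldn15b were under 10 in egg and could not come out lower in 1k-cell embryos. Under both median-of-ratios and upper-quartile scaling, 0 of 30 members were higher and 27 lower, with median log2 ratios of -2.89 and -2.94. The median over all genes was then -0.14 and -0.21. Of all genes 5840 were higher and 1338 lower as deposited. These counts were 3246 and 3683 under median-of-ratios scaling, and 3122 and 3814 under upper-quartile scaling. The genes that reach 10 also change with the scaling, so these counts are not shares of a fixed set. Median-of-ratios scaling moved the median of all genes on the log2 scale by -1.38 in this comparison, by 1.31 in egg against sperm, by 0.53 in germ ring against 1k-cell and by -0.84 in germ ring against egg.

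Between the germ ring and 1k-cell stages, 10 of 25 members compared were at least 2-fold higher, against 16.0% of all genes, and 8 lower, against 34.2%. The median log2 ratio was 0.65 for the members and -0.43 for all genes. Claudins under 10 in 1k-cell embryos were compared only through germ ring embryos and could not come out lower. Conversely cldn8 was under 10 in germ ring embryos and could not come out higher. Of all genes 1742 were higher and 3732 lower as deposited. These counts were 2563 and 2394 with upper-quartile factors, and 2562 and 2408 with median-of-ratios factors. With either set of factors 13 members were higher and 3 lower. The 3 that remained lower under both were cldnd, cldng and cldn17, while cldn2, cldn5b, cldn8, cldn12 and tjp2b did not reach 2-fold; f11r, marveld2b and tjp2a were the added higher ones. Between germ ring and egg, 6 of 28 members were at least 2-fold higher, against 48.1% of 10971 genes, and 15 lower, against 19.8%, with medians of -1.15 for the members and 0.88 for all genes. Here cldn1, cldn7a, cldn8 and cldnh were under 10 in germ ring embryos, were compared only through egg and could not come out higher. Likewise cldn11b and cldn15b were under 10 in egg and could not come out lower. With median-of-ratios factors 5 of 30 members were higher and 19 lower, beside 3916 and 3615 of all genes. The comparisons share libraries and are not independent of each other.

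**Figure D4:**
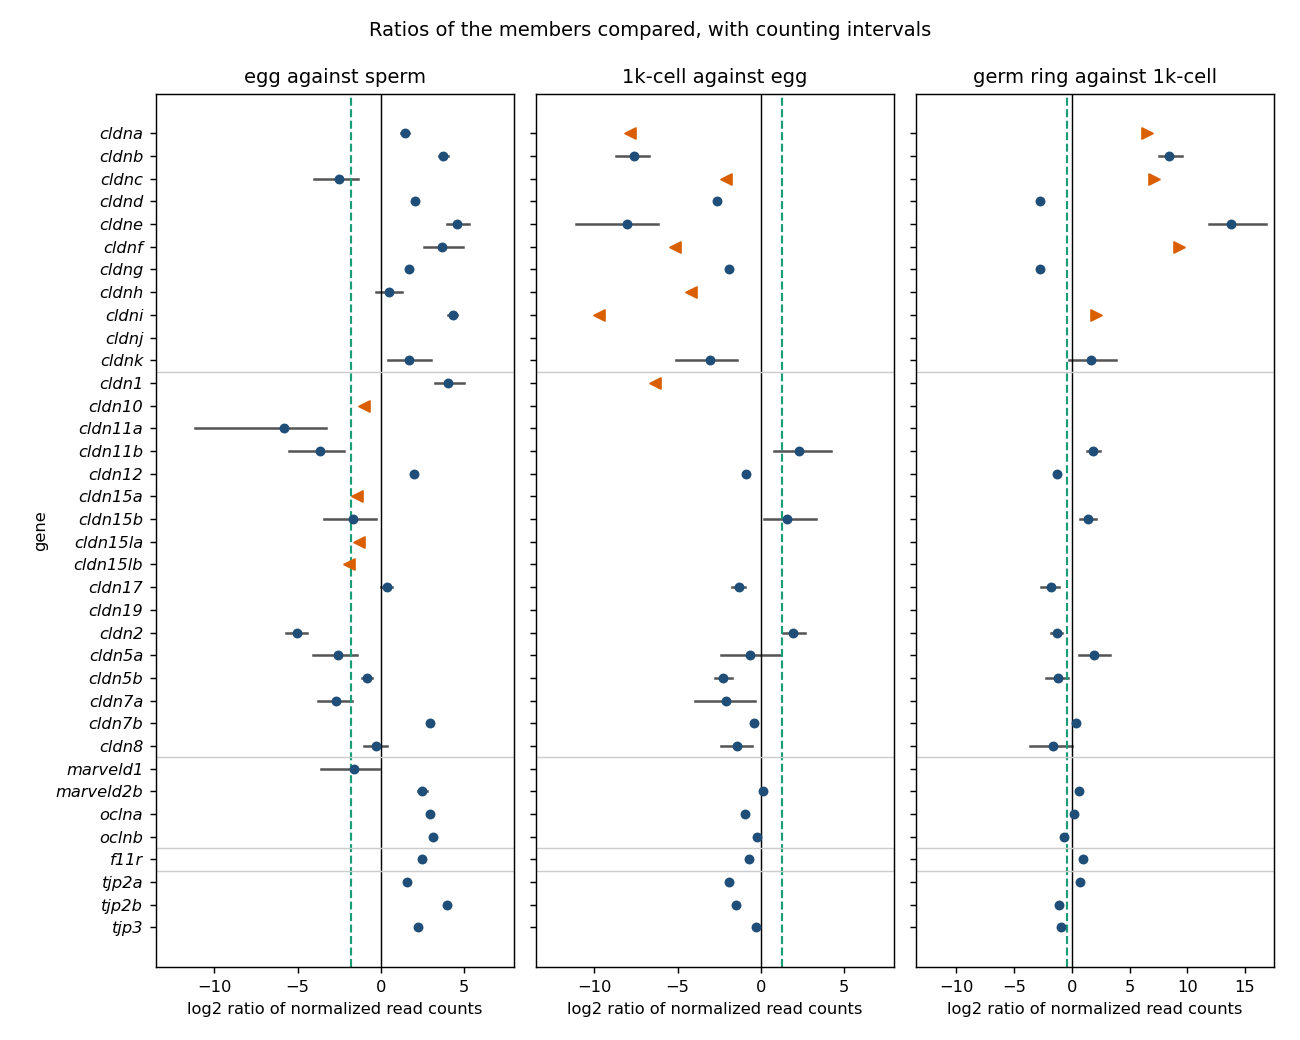
Log2 ratio of normalized read counts (without a pseudocount) for each member compared, in egg against sperm, 1k-cell against egg and germ ring against 1k-cell; blue points carry exact 95% counting intervals, orange arrowheads are bounds at 3 reads and point away from 0, and the dashed line marks the median of all genes. In the middle panel 25 of 28 members lie left of the dashed line at 1.24, and in the right panel cldne lies farthest from 0.

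Some of these genes are neighbours on the GRCz12tu assembly, from which only the order is taken. The order is that of protein-coding genes, and another such gene may lie between neighbours. The genes cldnj, cldne, cldnf and cldna follow each other in that order. Of these, cldne, cldnf and cldna had at most 2 reads in 1k-cell embryos and were higher in germ ring embryos, whereas cldnj had no read in egg or in 1k-cell embryos. A second group of 7 holds cldnh, cldnc, cldnb, cldn29, cldnd, cldn28 and cldn30. Within it cldnb and cldnd differed in direction: in germ ring embryos they were 351-fold higher and 6.56-fold lower than in 1k-cell embryos. The pair marveld2b and oclnb are also neighbours in this sense.

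A further 10 family genes are listed in the tables under clone names, lie outside the members and were matched by current symbol. Cingulin b, a cytoplasmic partner of the scaffolds (cgnb, listed as si:dkey-204a24.2), had 3402 in egg, 999 in sperm, 6152 in 1k-cell embryos and 2221 in germ ring embryos. The gene marveld3 (zgc:66450) had 3503 in egg, 368 in sperm, 3107 in 1k-cell embryos and 796 in germ ring embryos. The gene cldn8.2 (zgc:110333), a neighbour of cldn17 and cldn8, had 111 in egg, 87.4 in sperm, 70.4 in 1k-cell embryos and 2199.7 in germ ring embryos, 31.3-fold higher than in 1k-cell embryos (24.8 to 40.0). Thus cldn8.2 was higher in germ ring embryos while its neighbours cldn17 and cldn8 were lower. In the second neighbour group cldn30 (zgc:136892) had 33.7 in egg, 49.7 in sperm, 147 in 1k-cell embryos and 943 in germ ring embryos, and cldn29 (zgc:112437) stayed between 3.80 and 22.8. The claudin-domain genes cldnd1b (zgc:100913) and cldnd1a (zgc:64190) had 220.3 and 282 in egg, 261 and 765 in sperm, 1377 and 432 in 1k-cell embryos, and 1235 and 319 in germ ring embryos. The others, cldn33b (zgc:153311), cldn10b (zgc:110625) and f11r.2 (si:ch211-89p1.1), did not exceed 133 in any library.

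Other genes of the junction were mostly not lower in 1k-cell embryos than in egg. Of 58 listed partners of the tight junction (junctional adhesion molecules, angulins, polarity proteins and their adaptors) 32 were found. Of these 19 of 29 compared were at least 2-fold higher and 3 lower in 1k-cell embryos than in egg, against 54.7% and 12.5% of all genes, and their median log2 ratio was 1.43, near the 1.24 of all genes. Under median-of-ratios scaling 7 were higher and 7 lower, beside 3246 and 3683 of all genes. The atypical protein kinase C gene prkcz had 165 in 1k-cell embryos, against 7.94 in egg. The adhesion gene jam2a had 562 in 1k-cell embryos, against 1520.3 in egg, and the apical determinant crb3a had 8.56 against 23.8. As deposited prkcz, esama and crb1 were under 10 in egg and could not come out lower in 1k-cell embryos. Likewise crb3a was under 10 in 1k-cell embryos and could not come out higher. In egg against sperm 8 of 31 partners were higher and 15 lower, against 14.3% and 61.3% of all genes. Among them lsr, an angulin gene of tricellular contacts, had 8913 in egg and 968 in sperm. Here jam2b, esama, prkcz, crb1 and crb2a were under 10 in egg, were compared only through sperm and could not come out higher. Under median-of-ratios scaling 13 of 30 partners were higher and 6 lower, beside 3668 and 5318 of all genes. In germ ring against 1k-cell 4 of 29 were higher and 12 lower, against 16.0% and 34.2% of all genes, with ildr1b, another angulin gene, at 563 and 4980.0. Of the higher ones crb2a was under 10 in 1k-cell embryos and could not come out lower.

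Adherens junction and desmosome genes were found for 8 of 28 listed. In 1k-cell embryos against egg 3 of 8 were at least 2-fold higher and 1 was lower, the desmosomal plakophilin gene pkp2, with 0 in 1k-cell embryos and 31.8 in egg. This gene was compared only through egg and could not come out higher. Of all genes 54.7% were higher and 12.5% lower. The median log2 ratio of the list was 0.76 as deposited and -0.52 under median-of-ratios scaling. In egg against sperm 5 of 8 were higher and 2 lower (14.3% and 61.3% of all genes), with cdh1 at 11946 in egg and 1760.3 in sperm. Of the higher ones pvrl2l was under 10 in sperm and could not come out lower. In germ ring against 1k-cell 3 of 8 were higher and 1 lower (16.0% and 34.2% of all genes), with the desmosomal periplakin gene ppl at 6387 and 1699.9. Of the higher ones pkp2 was compared only through germ ring embryos and could not come out lower.

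Of 26 listed regulators of epithelial identity 16 were found. In germ ring against 1k-cell 9 of 14 were at least 2-fold higher and 4 lower, against 16.0% and 34.2% of all genes, and their median log2 ratio was 3.26. The epithelial splicing regulator gene esrp1 had 5284 in germ ring embryos and 8.56 in 1k-cell embryos, and the transcription factor gene gata3 had 3718 and 18.1. Here esrp1 was compared only through germ ring embryos and could not come out lower. Conversely hnf1bb was under 10 in germ ring embryos and could not come out higher. In 1k-cell against egg 6 of 15 were higher and 6 lower, against 54.7% and 12.5% of all genes, with esrp1 at 8.56 and tfap2c at 18.1 in 1k-cell embryos, against 395 and 371 in egg. Of the higher ones foxi1, hnf1ba and hnf1bb were under 10 in egg and could not come out lower. Of the lower ones esrp1 and grhl2b were under 10 in 1k-cell embryos and could not come out higher. Under median-of-ratios scaling 4 of 15 were higher and 9 lower, beside 3246 and 3683 of all genes. In egg against sperm 6 of 16 regulators were higher and 6 lower, against 14.3% and 61.3% of all genes. Of the lower ones foxi1, hnf1ba, hnf1bb and cdx1b were under 10 in egg and could not come out higher. Of the higher ones grhl2b was under 10 in sperm and could not come out lower. Under median-of-ratios scaling 10 were higher and 5 lower, beside 3668 and 5318 of all genes.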

How the data were processed

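RNA was purified with poly-T beads and sequenced on an Illumina HiSeq, per the labels' protocols. The authors deposited, per the file headers, a TMM-normalized read count per gene, a signal value made with 1 factor per library. The build Zv9 (danRer7), the package edgeR and the aligner BWA 0.6.1-r104 appear in the submitters' processing notes; the sources used here do not give the counting tool, annotation or strand setting. All values were whole multiples of 1 step per library within 0.01 reads (100% of values), so read counts were recovered. Each table held 15328 entries for 14244 names; for a repeated name (tjp2a among the members) the entry with the highest sum was used. Members sharing all 4 values with another name numbered 4 (cldn10, cldn15la, cldn15lb and cldnj, all with 23 reads or fewer).

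Genes at 10 or more in either library were compared by log2(count + 1), with a cutoff of 2-fold. A gene under 10 in 1 of the libraries entered only through the other and could be called in 1 direction only. This holds for members, listed genes and all genes. Folds are ratios of normalized counts without a pseudocount, with exact (Clopper-Pearson) 95% intervals of recovered reads from scipy 1.17.1, and a bound at 3 reads per library against 0, which ignores counting error in the library with reads. Intervals cover counting error only. Members at 500 or more in any library, and otherwise the 3 highest and 3 lowest ratios of each comparison, were to be named. Current symbols, found for 35 of 36 members, come from RefSeq. The members and lists were chosen with earlier results of these data known. The ratios were tested on simulated data. The enriched-region lists and the bisulfite and TAB samples were not used here.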

Additional observations from a re-analysis of the deposited data

How the results depend on the processing

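No paired analysis was possible because each group has 1 library. Alternatives were pseudocounts of 0.1 and 5, no minimum or a minimum of 50, equal totals, upper-quartile or median-of-ratios scaling, and the sum of repeated entries. Of the recomputed counts of members, 71 stayed within 1.5 times of the value as deposited and 9 did not. Members at least 2-fold higher in 1k-cell embryos than in egg numbered 3 as deposited, 5 with no minimum, 1 with a minimum of 50, and 0 with either upper-quartile or median-of-ratios factors, with which 27 were lower in place of 17. Members at least 2-fold lower in germ ring than in 1k-cell embryos numbered 3 in place of 8 with both. The counts over all genes also moved with these factors, as given above. With changed factors those counts are given without the number of genes compared, so they are not shares. Members lower by 2-fold in egg than in sperm numbered 6 in place of 12 with a minimum of 50, where fewer genes are compared. Which scaling comes closest to RNA per embryo was not tested. The egg library, with the fewest reads, limits the low claudins: 3 reads there equal 5.95 normalized counts.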
